A study of Mus musculus with 32 samples.

Results

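The genes followed here were 10 in number, the fibroblast surface markers Pdgfra and Cd34 and the 8 small leucine-rich proteoglycan genes Dcn, Bgn, Aspn, Lum, Fmod, Prelp, Omd and Ogn. They were taken by gene name from tables of 24952 genes, all 10 were found, and 9 of them were among the 13990 genes with enough counts to be tested. Fmod was the member left out of the tests. The libraries came from the tibialis anterior (TA) muscle of wild-type male C57BL/6JRj mice that lived in single cages on AIN93M food. Regions around neuromuscular junctions (NMJ), stained with fluorescent α-bungarotoxin, and regions away from them (xNMJ) had been cut out of cross sections with a laser, and many regions were pooled into each sample. Mice were 10 or 30 months old, and each age (10m, 30m) had 8 NMJ and 8 xNMJ libraries, 32 in all. No group carried a transgene or received a drug. The labels do not tie a library to an animal, so the p values measure the spread between libraries, and they do not say whether NMJ and xNMJ libraries came from the same mice.

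Small leucine-rich proteoglycans are secreted proteins with a horseshoe-shaped core of leucine-rich repeats, and most of them carry sugar chains. They bind collagen fibrils and regulate fibril width and spacing, and decorin and biglycan also bind growth factors such as TGF-beta. In skeletal muscle they are made mainly by interstitial fibroblasts and fibro-adipogenic progenitors, cells recognized by the PDGF receptor alpha that Pdgfra encodes. Cd34 encodes a sialomucin of fibroblasts that is also found on endothelial cells, mast cells and some muscle stem cells. NMJ regions hold, besides the muscle fiber, the nerve terminal, terminal Schwann cells and fibroblast-like cells that cap the synapse.

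Library totals ran from 4026648 to 16516788 counts, with medians at 10 months of 6062117 for xNMJ and 9605869 for NMJ, and at 30 months of 6790011 and 9825357. Levels are given below as CPM, counts of a gene scaled to a common library size after the total was rescaled by TMM, a method that centers the bulk of genes between libraries. A floor of 3 counts was worth 0.153 to 0.933 CPM, and it covers counting error alone, as PCR copies of one molecule were not told apart. Fold changes come from edgeR's quasi-likelihood test on the counts with the 4 groups in one fit, as log2 values with their standard error (SE), and adjusted p values are Benjamini-Hochberg values over the 13990 genes with a threshold of 0.05. Some libraries stood apart before any member was compared. The library labelled 30m xNMJ replicate 5 held 94.0 CPM of Chrne and 109 CPM of Etv5, genes transcribed by the nuclei under the synapse, while the other 30m xNMJ libraries held at most 0.24 CPM of Chrne and 14.7 CPM of Etv5. Replicate 7 of 10m xNMJ held 14.7 CPM of Colq, another synaptic gene, against at most 1.87 CPM in the rest of its group. Other synaptic genes stood out less in that library. Etv5 was at 2.42 CPM (at most 1.46 in the rest), Chrne at 1.04 CPM (at most 1.12) and Chrna1 at 23.0 CPM (at most 39.3). Replicate 5 of 10m xNMJ held 8.60 CPM of Tnmd, a tendon gene at 0 in the other 7 libraries of its group and at 6.58 CPM in 30m xNMJ replicate 1. Replicate 8 of 10m NMJ had an average insert of 52 nucleotides, against 79 to 131 in all other libraries. Chrne, Etv5, Colq, Chrna1 and Tnmd were singled out here after their values were seen.

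The first question was whether the members, which were chosen with earlier results of these data known, were higher around the synapse. At 10 months 5 of the 9 tested members were higher in NMJ than in xNMJ and none was lower, where 6.5% of all tested genes were higher and 5.05% lower. At 30 months the same 5 genes, Dcn, Lum, Pdgfra, Bgn and Prelp, were higher and none was lower, against 5% higher and 4.25% lower over all genes. Median log2 fold changes of the members were 1.57 at 10 months and 1.96 at 30 months, beside 0.00 and -0.01 over all tested genes. In Dcn, Lum, Pdgfra and Bgn every NMJ library lay above every xNMJ library of its age, which held for 2.22% of the tested genes at 10 months and 1.96% at 30 months. This is on CPM, and on TPM Bgn overlapped at 10 months, with one xNMJ library at 22.1 TPM and one NMJ library at 20.4 TPM. No member lay below without overlap, where 1.19% and 0.5% of the tested genes did. Cd34, Ogn, Aspn and Omd did not pass at either age in this fit. More cells of a type and more RNA per cell cannot be told apart in such captured regions.

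**Figure D1:**
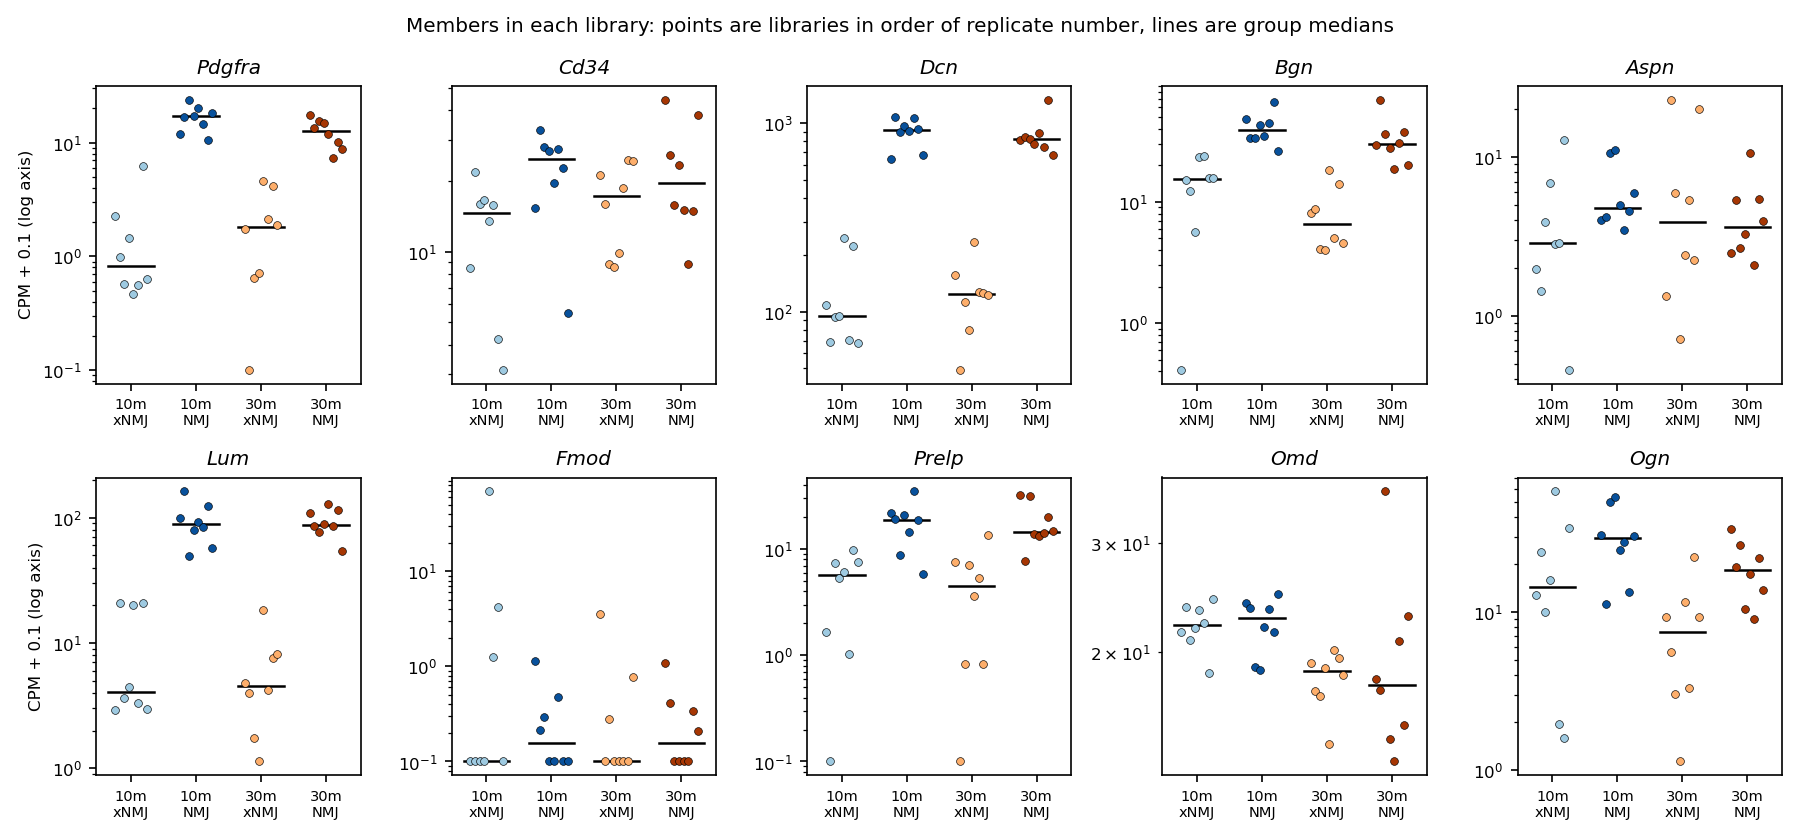
Each point is a library, plotted in the order of its replicate number within the group, on a log axis of CPM with 0.1 added so that libraries at 0 can be drawn, and each line is a group median (8 libraries per group). NMJ libraries lie above all xNMJ libraries of their age for Pdgfra, Dcn, Bgn and Lum, the groups overlap for the other members, and Fmod is at 0 counts in 4 or 5 libraries of each group.

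Pdgfra (chr5:75152292-75198215 on GRCm38, plus strand) marks fibro-adipogenic progenitors. Its lowest, median and highest values were 0.366, 0.715 and 6.12 CPM in 10m xNMJ and 10.5, 17.0 and 23.9 CPM in 10m NMJ. At 30 months they were 0, 1.71 and 4.51 CPM in xNMJ and 7.23, 12.7 and 17.3 CPM in NMJ. All NMJ libraries were thus higher than all xNMJ libraries, and 4 of the 10m xNMJ and 3 of the 30m xNMJ libraries were at or under the floor of 3 counts. The log2 fold change was 3.38 (SE 0.58, n = 8 per group, edgeR adjusted p = 8.8e-05) at 10 months and 2.68 (SE 0.56, edgeR adjusted p = 0.0014) at 30 months. One library set part of these values. Without 10m xNMJ replicate 7, the one at 6.12 CPM, the log2 fold change at 10 months was 4.22 (edgeR adjusted p = 2.5e-06), and without 30m xNMJ replicate 5 that at 30 months was 3.03 (edgeR adjusted p = 0.00055).

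Cd34 (chr1:194938819-194961279, plus strand) did not pass at either age in the fit of the 4 groups. It ranged from 3.03 to 21.7 CPM with a median of 14.6 in 10m xNMJ and from 5.39 to 33.0 with a median of 24.7 in 10m NMJ. At 30 months the range was 8.47 to 24.5 CPM (median 17.2) in xNMJ and 8.76 to 44.4 (median 19.5) in NMJ. The groups overlapped at both ages. Its log2 fold change was 0.85 (95% interval 0.07 to 1.63, edgeR adjusted p = 0.17) at 10 months and 0.50 (-0.28 to 1.28, edgeR adjusted p = 0.51) at 30 months. With a block for the replicate number Cd34 passed at 10 months, as given in the last section. At 10 months Cd34 passed on both TPM scales (1.25 with a pseudocount of 1 and 1.46 with one of 0.1, limma adjusted p = 0.018 for each), which moved the median of all genes up by 0.37 and 0.56. It passed at both ages when plain library totals replaced TMM (log2 fold changes 1.43 and 1.11, edgeR adjusted p = 0.012 and 0.046), a scaling that moved the median of all genes up by 0.55 and 0.63 and is described with Omd.

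Among the class I members, Dcn encodes decorin, which decorates type I collagen fibrils. The gene lies at chr10:97479609-97518143 on the plus strand. Its lowest, median and highest values were 67.9, 94.2 and 245 CPM in 10m xNMJ and 645, 913 and 1069.5 CPM in 10m NMJ. In 30m xNMJ they were 48.9, 124 and 233 CPM, and in 30m NMJ 673, 818 and 1331 CPM. Even the lowest NMJ library held more than the highest xNMJ library of either age. The log2 fold change was 2.88 (SE 0.28, edgeR adjusted p = 5.1e-09) at 10 months and 2.78 (SE 0.28, edgeR adjusted p = 2.0e-08) at 30 months, which placed Dcn 14th and 8th by p among all tested genes. These are 7.35-fold and 6.86-fold differences.

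Bgn, the gene of biglycan (chrX:73483602-73495933, plus strand), is the closest relative of Dcn. It ranged from 0.311 to 23.8 CPM with a median of 15.3 in 10m xNMJ and from 26.2 to 67.0 with a median of 38.9 in 10m NMJ. At 30 months it ranged from 3.92 to 18.1 CPM (median 6.49) in xNMJ and from 18.5 to 69.7 (median 29.9) in NMJ. The groups did not overlap, although the highest xNMJ and the lowest NMJ library were close, at 23.8 and 26.2 CPM at 10 months and 18.1 and 18.5 CPM at 30 months. The library at 18.1 CPM was 30m xNMJ replicate 5, which held synaptic transcripts and was the highest of its group for Pdgfra, Dcn, Lum and Bgn, and the next held 13.9 CPM of Bgn. Bgn had a log2 fold change of 1.57 (SE 0.42, edgeR adjusted p = 0.0098) at 10 months and of 2.01 (SE 0.43, edgeR adjusted p = 0.0016) at 30 months. Without 30m xNMJ replicate 5 the value at 30 months was 2.29 (edgeR adjusted p = 0.00043).

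Aspn encodes asporin, a class I protein that binds collagen and TGF-beta (chr13:49544443-49567565, plus strand). Median levels at 10 months were 2.76 CPM for xNMJ and 4.67 CPM for NMJ, those at 30 months 3.77 and 3.52 CPM, and the groups overlapped. Its widest range was in 30m xNMJ, from 0.620 to 22.9 CPM. Log2 fold changes between regions were 0.55 (95% interval -0.69 to 1.79) at 10 months and -0.78 (-2.02 to 0.46) at 30 months, with edgeR adjusted p = 0.65 and 0.52. Without one library they lay between 0.37 and 1.08 at 10 months and between -1.10 and -0.28 at 30 months. On TPM the value at 30 months was 0.17 with a pseudocount of 1 and 0.48 with one of 0.1, scales that moved the median of all genes up by 0.51 and 0.75.

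Of the class II members, Lum encodes lumican, a regulator of fibril assembly (chr10:97565128-97572703, plus strand). Lum held 2.80, 3.94 and 20.8 CPM (lowest, median and highest) in 10m xNMJ and 49.3, 88.7 and 163 CPM in 10m NMJ. In 30m xNMJ it held 1.03, 4.404 and 18.1 CPM and in 30m NMJ 54.6, 87.4 and 127 CPM. The xNMJ values of 10 months fell into 5 libraries under 5 CPM and 3 at about 20 CPM, all below the NMJ libraries. The log2 fold change was 3.24 (SE 0.48, edgeR adjusted p = 1.1e-05) at 10 months and 3.89 (SE 0.50, edgeR adjusted p = 1.5e-06) at 30 months, 9.45-fold and 14.8-fold. Leaving out 30m xNMJ replicate 5, the highest of its group, raised the value at 30 months to 4.402 (edgeR adjusted p = 1.2e-07).

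Prelp encodes a proteoglycan with a basic, heparin-binding end that anchors basement membranes to connective tissue (chr1:133910304-133921414, minus strand). It ranged from 0 to 9.69 CPM with a median of 5.62 in 10m xNMJ and from 5.75 to 35.2 with a median of 18.9 in 10m NMJ. The ranges were 0 to 13.4 CPM (median 4.39) in 30m xNMJ and 7.59 to 32.5 (median 14.4) in 30m NMJ. At both ages 6 of the 8 NMJ libraries lay above all xNMJ libraries. Its log2 fold changes of 1.9 (SE 0.64) and 1.96 (SE 0.64) passed narrowly, with edgeR adjusted p = 0.048 at 10 months and 0.0494 at 30 months. Leaving out one library at a time ended the call in 24 of 32 fits at 10 months and in 25 of 32 at 30 months, with edgeR adjusted p up to 0.10 and 0.097. The call was also lost with no filter on low counts (edgeR adjusted p = 0.051 and 0.055). A block for the replicate number ended it at both ages as well.

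Fmod, the gene of fibromodulin, a lumican-like protein abundant in tendon (chr1:134037254-134048277, plus strand), was nearly absent. At each age 5 of the 8 xNMJ and 4 of the 8 NMJ libraries had 0 counts. The exception was 10m xNMJ replicate 5 with 381 counts or 69.7 CPM, and the next highest library of its group held 4.15 CPM. That library also held the Tnmd counts described above and 2.56 CPM of Comp, the most in its group. Other tendon genes did not stand out there. Scx was at 0.366 CPM against 6.25 CPM in replicate 6, and Thbs4 at 112 CPM against 134 CPM in replicate 4. Mkx was at 89.3 CPM, within the 81.8 to 133 CPM of its group. These genes were named after their values were seen, and the part of tendon cells in the library's values was not tested.

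Omd encodes osteomodulin, best known from bone (chr13:49582462-49592822, plus strand). Except in 30m NMJ its values were the most even of all members, with 18.5, 22.0 and 24.2 CPM (lowest, median and highest) in 10m xNMJ and 18.6, 22.6 and 24.7 CPM in 10m NMJ. In 30m xNMJ they were 14.2, 18.5 and 20.1 CPM and in 30m NMJ 13.3, 17.7 and 36.2 CPM. The regions overlapped throughout, and the log2 fold change was 0.00 (95% interval -0.39 to 0.40, edgeR adjusted p = 0.99) at 10 months and 0.13 (-0.26 to 0.53, edgeR adjusted p = 0.77) at 30 months. This depended on the scaling. Over plain library totals Omd had xNMJ and NMJ means of 18.2 and 26.7 CPM at 10 months and of 14.5 and 24.6 CPM at 30 months, and log2 fold changes of 0.56 (edgeR adjusted p = 0.051) at 10 months and 0.77 (edgeR adjusted p = 0.0082) at 30 months. With that scaling the median log2 fold change of all tested genes moved up by 0.55 at 10 months and 0.63 at 30 months, and the split of called genes moved from 909 higher and 706 lower to 2667 and 210 at 10 months, and from 700 and 595 to 2692 and 75 at 30 months. The values of Omd were thus close to the shift of all genes.

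In the xNMJ groups the counts of Omd varied among libraries little more than counting error would give. Chi-squared per degree of freedom, set against library sizes scaled by TMM, was 1.05 in 10m xNMJ, and only 2 of 2120 genes with a like total of counts had a lower value, their median being 32.4. The value was 1.56 in 30m xNMJ, where 1 of 2407 such genes was lower, and 3.28 in 10m NMJ, where 9 of 2334 were lower. In 30m NMJ it was 35.3, near the median of 36.8, with replicate 3 at 36.2 CPM and the next library at 22.8 CPM. Across the groups the value was 175 to 559 for Dcn, 24.9 to 106 for Ogn and 8.59 to 15.1 for Pdgfra. Every other tested member was above Omd except in 30m NMJ, where Pdgfra (11.5) and Aspn (25.9) were below it.

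Ogn, the class III member, encodes osteoglycin or mimecan (chr13:49608046-49624501, plus strand). It ranged from 1.5 to 58.2 CPM with a median of 14.3 in 10m xNMJ and from 11.1 to 53.5 with a median of 29.1 in 10m NMJ. In 30m xNMJ it ranged from 1.03 to 22.1 CPM (median 7.33) and in 30m NMJ from 8.92 to 33.5 (median 18.3). NMJ medians were above xNMJ medians but the groups overlapped. The log2 fold change was 0.61 (95% interval -0.48 to 1.69, edgeR adjusted p = 0.54) at 10 months and 1.22 (0.12 to 2.33, edgeR adjusted p = 0.18) at 30 months. Over plain library totals Ogn passed at 30 months (log2 fold change 1.78, edgeR adjusted p = 0.024), and on log2(TPM + 1) it passed at both ages (1.35 and 1.67, limma adjusted p = 0.032 and 0.0074). Those scalings moved the median of all genes up by 0.55 to 0.63 and by 0.37 to 0.51. Replicate 5 of 10m xNMJ, the library with Fmod, held its highest value, and without it the difference at 10 months was 1.08 (edgeR adjusted p = 0.23).

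**Figure D2:**
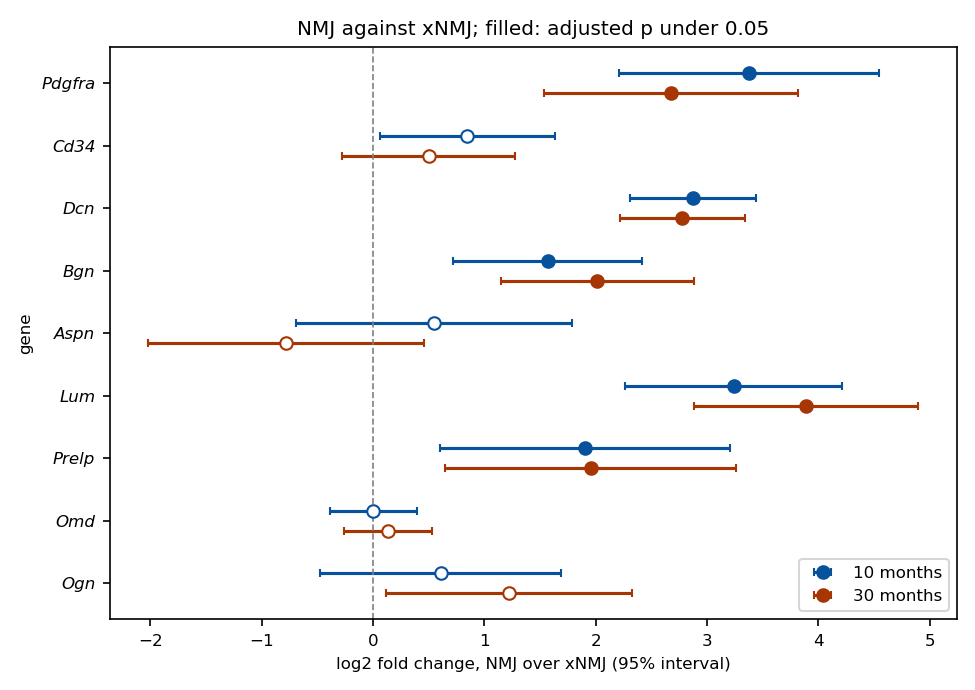
Log2 fold change of NMJ over xNMJ with its 95% interval for the 9 tested members at 10 months (blue) and 30 months (brown), with filled points for an adjusted p under 0.05. Pdgfra, Dcn, Bgn, Lum and Prelp are filled at both ages, from 1.57 for Bgn at 10 months to 3.89 for Lum at 30 months, and the intervals of Omd and Aspn include 0 at both.

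Several members are neighbors in the genome. Dcn and Lum are 47.0 kb apart on chromosome 10, and both were higher in NMJ at both ages. Aspn, Omd and Ogn follow each other on chromosome 13 with gaps of 14.9 and 15.2 kb, and none of these passed at either age in the fit of the 4 groups with TMM. Prelp and Fmod are 116 kb apart on chromosome 1, the former at up to 35.2 CPM and the latter at 0 counts in most libraries. Promoter sequences of the mouse from RefSeq (GRCm38.p6) were matched by symbol for 8 of the 10 members, all but Dcn and Lum. The 100 bases before the start are shown for Pdgfra and Bgn, which were higher in NMJ without overlap, and for the trio on chromosome 13.
Pdgfra: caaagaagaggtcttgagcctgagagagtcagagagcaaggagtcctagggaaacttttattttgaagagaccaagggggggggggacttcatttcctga
Bgn: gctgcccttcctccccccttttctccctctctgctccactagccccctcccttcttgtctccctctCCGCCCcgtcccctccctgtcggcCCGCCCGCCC
Aspn: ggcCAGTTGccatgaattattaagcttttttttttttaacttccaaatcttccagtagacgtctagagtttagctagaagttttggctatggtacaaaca
Omd: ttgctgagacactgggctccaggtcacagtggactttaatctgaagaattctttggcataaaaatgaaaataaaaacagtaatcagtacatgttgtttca
Ogn: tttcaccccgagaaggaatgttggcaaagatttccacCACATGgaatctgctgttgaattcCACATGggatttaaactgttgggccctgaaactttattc

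These windows are chr5:75152151-75152250, chrX:73483501-73483600, chr13:49544343-49544442, chr13:49582362-49582461 and chr13:49607915-49608014, all on the plus strand, and capitals mark matches to the motifs searched. Motifs were searched by their letters on both strands. The N-box core of synaptic genes, CCGGAA, was held by 7.23% of 32851 promoter windows of this length. The AP-1 letters TGANTCA were held by 2.73%. The box bound by the TBP protein, TATAAA, was held by 5.56%, the GC box GGGCGG by 24.7% and the E-box CANNTG by 34.4%. Bgn held 3 GC boxes, at 34, 10 and 6 bases before the start, the last pair overlapping. Ogn held 2 E-boxes, at 63 and 39 bases, and Aspn held 1 at 97 bases. The windows of the other 5 members, Pdgfra, Cd34, Fmod, Prelp and Omd, held none of these letters. GC content was 71% in Bgn and 64% in Prelp, against 35% in Aspn, 36% in Omd and 43% in Ogn. A match of letters is a description of the window.

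To compare levels between genes, the deposited TPM values, which are scaled for transcript length, were used. Dcn was the most abundant member in every group, with means of 68.0 ± 41.5 TPM (SD, n = 8) for xNMJ and 673 ± 159 for NMJ at 10 months and of 69.8 ± 27.0 and 677 ± 122 at 30 months. Behind it the order differed between regions. In NMJ Lum (55.0 and 56.9 TPM at 10 and 30 months) and Bgn (32.7 and 28.8 TPM) followed, and their neighbors Ogn and Omd at 10 months (16.7 ± 8.39 and 14.1 ± 1.82 TPM) did not differ beyond their spread. In xNMJ Omd was second at both ages (10.2 and 8.25 TPM), ahead of Bgn at 10 months (9.31 TPM) and of Cd34 at 30 months (6.39 TPM) by less than the spread of those genes. Pdgfra was low throughout, at 0.472 and 0.418 TPM in xNMJ and 3.94 and 3.15 TPM in NMJ. The sum of the 8 proteoglycans was 106 ± 57.8 TPM for xNMJ and 802 ± 176 TPM for NMJ at 10 months, and 93.8 ± 32.7 and 799 ± 131 TPM at 30 months.

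Decorin transcripts made up 62.6% ± 11.3 (SD, n = 8) of this sum for xNMJ and 83.6% ± 2.74 for NMJ at 10 months, and 73.2% ± 9.86 and 84.6% ± 2.25 at 30 months. The share was between 77.9% and 86.5% in each 10m NMJ library and between 46.7% and 78.0% in each 10m xNMJ library, so the ranges met at their ends. At 30 months NMJ shares of 82.1% or more lay above xNMJ shares of 80.9% or less. The mean share of Lum was 3.77% for xNMJ and 6.84% for NMJ at 10 months, and 2.45% and 7.24% at 30 months. For Omd it was 11.4% and 1.83%, then 9.78% and 1.81%, although its mean TPM was not lower in NMJ. These shares are given as a description, with no test.

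**Figure D3:**
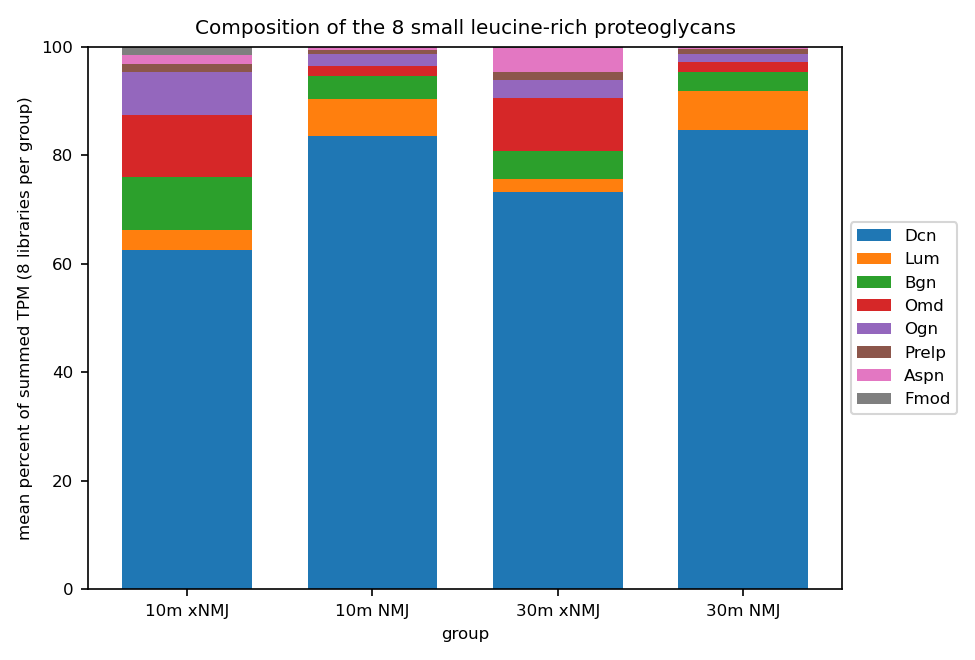
Stacked bars give the mean percent of the summed TPM of the 8 proteoglycan genes in each group (8 libraries per group). Dcn takes 62.6% and 73.2% in the xNMJ groups and 83.6% and 84.6% in the NMJ groups. The band of Lum is also narrower in xNMJ, and the bands of Omd, Bgn, Ogn, Aspn, Prelp and Fmod are wider there at both ages.

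Within groups the members varied together only in part. After the group means were subtracted from log2 CPM, Pearson's r over the 32 libraries was 0.59 between Dcn and Lum, 0.58 between Pdgfra and Dcn, 0.50 between Dcn and Prelp and 0.46 between Lum and Bgn. Over all 36 pairs of tested members the median was 0.07, and 22 pairs were above 0. The lowest was that of Aspn and Omd with -0.35. Libraries share their depth and cell content, so these values describe the libraries and carry no p. Dcn had a median r of 0.33 with 16 other fibroblast marker genes, the highest being 0.63 with Igfbp6, named for that value. Pdgfra had a median r of 0.23 with them and Cd34 one of -0.01. With 6 synaptic nucleus genes the median r was 0.39 for Dcn, 0.41 for Pdgfra and -0.13 for Cd34. For Dcn and Pdgfra these were the highest list medians. Lum had 0.40 with the synaptic nucleus genes and 0.19 with the fibroblast markers. For Cd34 the highest list median was 0.29 with 5 other small leucine-rich proteoglycans, and that with 12 collagen and partner genes was 0.13, with 7 endothelial genes 0.09 and with 5 mast cell genes 0.07. Measured in the same way against the mean of the 9 tested members, the most similar of 6616 genes with at least 10 CPM were Slc25a51 (0.66), Evc (0.66), Rnase4 (0.63), Impad1 (0.62) and Haus1 (0.60).

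The second question was whether the members changed between 10 and 30 months. None passed in NMJ, where 0% of all tested genes were higher and 0% lower with edgeR, 372 genes had an unadjusted p under 0.05 and DESeq2 called 1 gene. In NMJ the log2 change from 10 to 30 months was -0.05 for Dcn (95% interval -0.58 to 0.48), -0.01 for Lum (-0.90 to 0.87), -0.30 for Bgn (-1.13 to 0.52) and -0.43 for Pdgfra (-1.48 to 0.62). On log2(TPM + 1), which moved the median of all genes in this comparison up by 0.087, Dcn was at 0.03 and Lum at 0.14. The remaining members had changes between -0.67 for Ogn and 0.06 for Cd34, and every edgeR adjusted p was 0.9998.

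In xNMJ no member passed either, where 0.0357% of all tested genes were higher and 0.00715% lower with edgeR. DESeq2 called more genes in this comparison, and the edgeR count moved when one library was left out. Both are given in the last section, and neither brought in a member. Ogn had a change of -1.29 (95% interval -2.40 to -0.18, edgeR adjusted p = 0.44), or -0.82 without 10m xNMJ replicate 5, with medians of 14.3 CPM at 10 months and 7.33 CPM at 30 months in overlapping groups. Aspn had 0.88 (edgeR adjusted p = 0.73), Bgn -0.75 (edgeR adjusted p = 0.60) and Lum -0.66 (edgeR adjusted p = 0.73). Dcn stood at 0.05 (-0.48 to 0.58) and Pdgfra at 0.27 (-0.85 to 1.39), which became 1.11 without 10m xNMJ replicate 7 and -0.081 without 30m xNMJ replicate 5. Without one library Dcn lay between -0.14 and 0.27. Whether the NMJ difference itself differed between ages was tested as an interaction, and no member passed. Across all tested genes 0% were called in either direction, with 708 genes at an unadjusted p under 0.05 and 9 called by DESeq2. Interaction values ran from -1.32 for Aspn (95% interval -3.08 to 0.43) to 0.65 for Lum (-0.63 to 1.93).

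The fibrillar collagens to which these proteins bind are shown beside them. Of 12 collagen and partner genes 5 were higher in NMJ at 10 months and 3 at 30 months, none was lower, and the median log2 fold changes were 1.83 and 0.96. Col1a2, a chain of type I collagen, had 1.75 (SE 0.25, edgeR adjusted p = 8.4e-06) and 1.83 (SE 0.26, edgeR adjusted p = 6.3e-06), and Col6a2, a chain of type VI collagen, had 3.07 and 1.896 (edgeR adjusted p = 5.9e-05 and 0.0083). With age in NMJ 11 of the 12 had values below 0 with a median of -0.78, but none passed. The members' median in the same comparison was -0.16 and that of all tested genes 0.02. The difference between the lists was not tested.

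**Figure D4:**
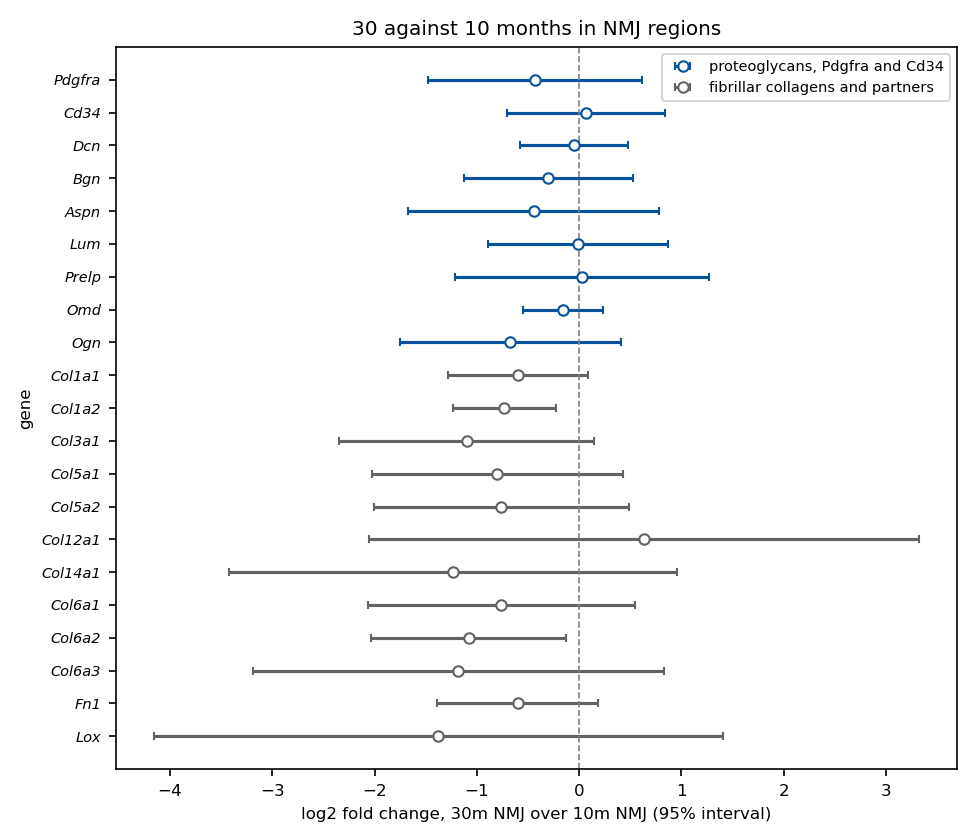
Log2 fold change of 30m NMJ over 10m NMJ with its 95% interval for the 9 tested members (blue) and 12 fibrillar collagen and partner genes (grey), all open because none had an adjusted p under 0.05. Points of Dcn, Lum, Prelp and Cd34 lie within 0.1 of 0, and 11 of the 12 collagen and partner genes lie below 0.

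Ligands of the receptor that Pdgfra encodes were measured as well. Pdgfa, its main ligand gene, ranged from 5.91 to 54.9 CPM (median 35.7) in 10m xNMJ and from 140 to 263 CPM (median 201) in 10m NMJ. At 30 months it ranged from 20.4 to 59.7 CPM (median 30.5) and from 155 to 231 CPM (median 191). The groups did not overlap, and the log2 fold change was 2.49 (SE 0.29, edgeR adjusted p = 2.3e-07) at 10 months and 2.33 (SE 0.29, edgeR adjusted p = 1.2e-06) at 30 months. Pdgfc, another ligand of this receptor, passed at 10 months (1.92, SE 0.63, edgeR adjusted p = 0.041) from medians of 0.93 and 3.30 CPM. These were the only ones to pass among the 5 tested PDGF ligand and receptor genes besides Pdgfra, and none was lower. Among TGF-beta genes Tgfbr2, a receptor, was the 1 of 6 that was higher at 10 months (1.13, SE 0.33, edgeR adjusted p = 0.017), and Tgfb2, a ligand, the 1 at 30 months (1.07, SE 0.32, edgeR adjusted p = 0.027).

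Enzymes that build the sugar chains of decorin and biglycan were followed with 11 tested genes. Chpf, which acts in chondroitin chain elongation, had medians of 1.899 and 15.1 CPM in 10m xNMJ and 10m NMJ and of 0.58 and 22.1 CPM at 30 months. Its log2 fold changes were 3.23 (SE 0.72, edgeR adjusted p = 0.0020) and 4.42 (SE 0.77, edgeR adjusted p = 0.00015). Dse, the epimerase that turns chondroitin into dermatan sulfate, was higher at 10 months (edgeR adjusted p = 0.018), with 0 counts in 6 of the 8 10m xNMJ libraries. No enzyme was lower, and the other 9 did not pass at either age. Of 5 other small leucine-rich proteoglycan genes that were tested none passed, and the most abundant was Optc, whose protein is best known from the eye and which was named for that level, with 20.1 TPM in 10m xNMJ and 11.8 TPM in 10m NMJ.

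Other fibroblast markers gave the same count at both ages, with 5 of 16 tested genes higher in NMJ and none lower, and medians of 0.70 and 1.35. Smoc2, a matricellular protein gene, had 3.88 (SE 0.38, edgeR adjusted p = 6.8e-09) and 3.18 (SE 0.37, edgeR adjusted p = 2.9e-07), and Cxcl14, a chemokine gene, had 3.69 and 3.23 (edgeR adjusted p = 3.7e-07 and 3.8e-06). Gsn, the actin-severing gelsolin, had 1.61 at 30 months (SE 0.22, edgeR adjusted p = 4.4e-06), and Col15a1, a basement membrane collagen, 2.73 at 10 months (SE 0.65, edgeR adjusted p = 0.0036). Ly6a, which encodes the progenitor antigen Sca-1 and was named after its value was seen, had 0.34 at each age (edgeR adjusted p = 0.69 and 0.72). Summed over the list, levels at 10 months ran from 131 to 441 TPM for xNMJ and 514 to 868 TPM for NMJ, and at 30 months from 110 to 245 and 356 to 1123 TPM.

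Markers of other cells moved with the same contrast, and their part in the members' difference was not tested. Glial genes were higher in 7 of 8 at both ages, with sums at 10 months of 1.99 to 7.91 TPM for xNMJ and 122 to 155 TPM for NMJ, and at 30 months of 1.26 to 8.78 and 74.8 to 147 TPM. Macrophage and leukocyte genes were higher in 4 of 7 at 10 months and 3 of 7 at 30 months, among them Mrc1, and their sums had medians of 4.68 TPM for xNMJ and 44.4 TPM for NMJ at 10 months, then 4.76 and 41.0 TPM at 30 months. Mast cell genes were higher in 4 of 5 at both ages, and their medians in the same order were 0.166, 36.3, 0.415 and 61.5 TPM, with Cma1 the most abundant in NMJ and Cpa3 at 0 in all xNMJ libraries. All 6 synaptic nucleus genes were higher at both ages, with summed medians of 7.11, 947, 9.81 and 972 TPM, led by Chrne. Of 3 tested nerve-sheath fibroblast genes Cldn1 was higher at 10 months, and their summed medians were 2.19, 7.16, 2.61 and 5.64 TPM.

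Markers of further cell types did not all move in one direction, and their part in the members' difference was not tested either. None of 7 endothelial genes was higher, and Cdh5, an endothelial cadherin, was lower at 30 months (-1.29, SE 0.34, edgeR adjusted p = 0.0094), with summed medians of 42.1 TPM for xNMJ and 37.1 TPM for NMJ at 10 months, then 36.0 and 27.3 TPM at 30 months. Of 7 pericyte and smooth muscle genes Cspg4 was higher at both ages (1.92 and 1.79), while Abcc9 (-0.70) and Rgs5 (-0.83) were lower at 30 months. Sdc4, a syndecan used as a muscle stem cell marker, was the 1 of 4 such genes that was higher (2.40 and 1.79). Mkx, a tendon transcription factor, was lower in NMJ (-1.44 and -1.07) and at 98.3 CPM in the median 10m xNMJ library. It was the 1 of 3 tested tendon genes that was called. The 3 had median log2 fold changes of -0.14 at 10 months and -0.44 at 30 months, where 1 of them was above 0. Tendon genes, in the same order, summed to medians of 54.8, 42.1, 45.2 and 46.6 TPM, led by Mkx, or by Thbs4 in 10m NMJ. Plin1 was the 1 of 2 tested adipocyte genes that was called, lower at both ages (-1.62 and -1.63). At 10 months 1 of the 2 adipocyte genes was above 0 and their median log2 fold change was -0.04. At 30 months 0 were above 0 and the median was -1.29. Adipocyte genes summed to 104 TPM in replicate 1 and 65.4 TPM in replicate 7 of 30m xNMJ and to 81.0 TPM in replicate 3 of 30m NMJ, against medians of 6.45 and 6.62 TPM in these groups. Muscle fiber genes were lower in 4 of 6 at both ages, such as Ckm (-1.08 at each age).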

How the data were processed

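The 32 libraries of captured TA muscle RNA were grouped by the sample labels. The authors prepared cDNA with a SMART-Seq v4 kit and, per the submitters' processing notes and the methods, used Cutadapt 1.9.1, kallisto 0.43.1 and GRCm38, with a read that mapped to several protein-coding transcripts divided evenly among them, so that near-identical genes share reads. The counts deposited by the authors are whole numbers without normalization. The TPM deposited by the authors are relative to transcript length and sum to a fixed total, and both tables hold 24952 genes.

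Counts were tested with edgeR 4.0.16 in R 4.3.3 (TMM factors, quasi-likelihood fit of the 4 groups, at least 1 CPM in at least 8 libraries, Benjamini-Hochberg adjustment). P values were two-sided. Standard errors are the log2 fold change over the square root of F. Median TMM factors at 10 months were 0.831 (xNMJ) and 1.21 (NMJ), at 30 months 0.765 and 1.25. Log2 CPM for correlations used a prior count of 2. Chi-squared per gene between the 112 pairs of libraries of one group was 21.4 to 387, so no pair agreed within sampling noise. The edgeR steps were tested on simulated data for NMJ against xNMJ at 10 months, and for no other comparison.

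The members and gene lists were chosen with earlier results of these data known. Named genes were every member, of each other list up to 3 genes with the smallest p among those called in a comparison, and the 5 genes most like the members; others are marked. Alternatives were DESeq2 1.42.0 and its size factors, no filter on low counts, a fit of each pair of groups alone, a block for the replicate number, a term for insert size, limma 3.58.1 on log2(TPM + 1) and log2(TPM + 0.1), and each library left out. Plain library totals and 3 libraries left out together were added after seeing the data. Positions come from GENCODE M21 and promoters from RefSeq. The list genes Cd248, Cilp2, Cldn5 and B3galt6 were not analysed here, and the level of 1 glial gene is not reported here. Figures were drawn with matplotlib 3.10.9.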

Additional observations from a re-analysis of the deposited data

Results flagged for a closer look

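Of 40 gene and group sets of 8 libraries, 10 had a highest library whose gap to the next exceeded Dixon's 95% limit. That limit marks about 1 in 20 sets by chance only when values are normally distributed. This was not shown for these CPM values, so the count of 10 is a description. Pdgfra stood at 6.12 CPM in 10m xNMJ replicate 7 (next 2.18 CPM). Dcn stood at 1331 CPM in 30m NMJ replicate 7 (next 882 CPM). Lum stood at 18.1 CPM in 30m xNMJ replicate 5 (next 8.03 CPM), the library that also held synaptic transcripts. Bgn stood at 69.7 CPM in 30m NMJ replicate 2 (next 37.6 CPM). Fmod had such a library in every group, at 69.7 CPM in 10m xNMJ replicate 5 (next 4.15 CPM), 1.03 CPM in 10m NMJ replicate 1, 3.49 CPM in 30m xNMJ replicate 1 and 0.996 CPM in 30m NMJ replicate 1, with most other libraries at 0 counts. Aspn stood at 10.5 CPM in 30m NMJ replicate 5 (next 5.35 CPM), and Omd at 36.2 CPM in 30m NMJ replicate 3 (next 22.8 CPM). The cause of these gaps was not tested.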

How the results depend on the processing

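Dcn, Lum, Pdgfra and Bgn kept their direction and their call between regions at both ages under all 10 alternatives and all 32 fits without one library. Log2 fold changes of Dcn without one library lay between 2.79 and 3.10 at 10 months and between 2.66 and 2.97 at 30 months. Prelp did not keep its call: with the groups compared alone its adjusted p at 30 months was 0.071, with insert size as a covariate it was 0.15 and 0.12 at 10 and 30 months, and with 3 libraries left out together it was 0.053 and 0.075. The cause was not tested. Genes called between regions numbered 1615 at 10 months and 1295 at 30 months, and 1433 to 1708 and 1106 to 1475 without one library. They rose to 2918 and 3561 with log2(TPM + 1), 3014 and 3681 with log2(TPM + 0.1) and 2877 and 2767 with plain library totals, with which 8 members passed at 30 months. Of these calls 91.9% and 98.3%, 92.4% and 98.5%, and 92.7% and 97.3% were higher in NMJ, and the median of all genes moved up by 0.37 and 0.51, 0.56 and 0.75, and 0.55 and 0.63. Members called were 4 to 5 at both ages without one library. With TPM, Cd34 and Ogn at 10 months and Ogn and Omd at 30 months also passed, on scales that carry this shift.

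With age, genes called in NMJ were 1 with DESeq2 and 3 with log2(TPM + 1). In xNMJ they were 84 with DESeq2, 2 with insert size as a covariate, 0 with the groups compared alone, with either TPM scale and with 3 libraries left out together, and 0 to 9 without one library. The interaction called 9 genes with DESeq2 and 0 to 1 without one library. No member passed with age or in the interaction under any of these.

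Other than Omd at 30 months, members whose sign turned passed under no setting of that comparison. For age in NMJ these were Prelp (-0.0144 with DESeq2, -0.0143 with its size factors, -0.11 with 3 libraries left out), Cd34 (-0.085 with 3 left out), Lum (0.0070 with insert size, 0.14 on both TPM scales, 0.0025 with plain totals) and Dcn (0.029 on both TPM scales). For age in xNMJ these were Prelp (0.0089 with the groups compared alone, 0.076 with 3 left out), Dcn (-0.0016 with insert size) and Pdgfra (-0.034 and -0.10 on the TPM scales, -0.23 with 3 left out). Prelp was at -0.18 in the interaction with 3 left out, Omd at -0.0090 at 10 months with 3 left out, and Aspn at 0.17 and 0.48 at 30 months on the TPM scales. Without one library, ranges across 0 were -0.029 to 0.036 (Omd, 10 months), -0.050 to 0.20 (Omd, 30 months), -0.14 to 0.19 (Cd34, age in NMJ), -0.11 to 0.15 (Lum, age in NMJ), -0.14 to 0.24 (Prelp, age in NMJ), -0.14 to 0.27 (Dcn, age in xNMJ), -0.081 to 1.11 (Pdgfra, age in xNMJ), -0.46 to 0.20 (Prelp, age in xNMJ), and in the interaction -0.32 to 0.091 (Dcn), -0.18 to 0.49 (Prelp) and -0.054 to 0.19 (Omd).

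Replicates carry the numbers 1 to 8 in every group. Same-numbered libraries of both regions correlated in their deviations from the group means with a mean r of 0.089 at 10 months (4 of 8 pairs over 0.1) and 0.081 at 30 months (1 of 8), against -0.013 and -0.011 for other numbers, and 4 of 8 correlated best with their own number at each age. Since neither the labels nor a correlation over 0.1 in every pair tie the numbers, they were not taken as pairs, although own numbers correlated best in more libraries than the 1 of 8 that unrelated numbers would give. With a replicate block, 1829 genes were called at 10 months and 1531 at 30 months, with 5 and 4 members among them. Cd34 passed at 10 months (log2 fold change 0.93, edgeR adjusted p = 0.044) and Prelp did not (adjusted p = 0.10 and 0.053). The block changed no other member's call.

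Depth limits Fmod in all groups, and Pdgfra in xNMJ, where 4 of 8 libraries at 10 months and 3 of 8 at 30 months held 3 counts or fewer.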
